A study of Mus musculus with 8 samples.

Results

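The genes that encode insulin and the machinery that turns its precursor into the stored hormone were followed across 8 RNA-seq libraries of mouse pancreatic islets. The set holds 10 genes, chosen by symbol from the 22609 symbols of the count table: Ins1, Ins2, Iapp, Pcsk1, Pcsk2, Cpe, Pcsk1n, Scg5, Slc30a8 and Ucn3. All 10 were in the table and all 10 passed the filter on low counts. The study deleted Sirt6, which encodes a chromatin deacylase of the sirtuin family, from islet cells at different stages.

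Each of the 4 groups had 2 libraries, all from male mice of a mixed background aged 8 to 9 weeks. BKO mice carried MIP1-CreERT, in which a mouse insulin promoter drives a Cre recombinase that tamoxifen activates, with both Sirt6 alleles floxed (Sirt6 f/f), and their islets were collected 2 weeks after tamoxifen. The BKO controls also carried MIP1-CreERT. Replicate 1 of these controls was Sirt6 f/+, with a single floxed allele, and replicate 2 was Sirt6 +/+. Whether these controls were given tamoxifen is not stated in the labels. EKO mice carried Ngn3-Cre, a Cre active from the endocrine progenitors of the pancreas on, with Sirt6 f/f, and the EKO controls carried Ngn3-Cre with Sirt6 +/+. All 8 libraries therefore came from mice with a Cre transgene. Islets recovered for 4 h in RPMI medium with 10% serum before RNA was taken. Only the BKO controls can be told to be separate animals, from their genotypes, so the p-values below measure only how far these samples vary, and that variation may be technical in the other groups.

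Beta cells make preproinsulin, clip its signal peptide in the endoplasmic reticulum and sort proinsulin into secretory granules. There the prohormone convertases encoded by Pcsk1 (PC1/3) and Pcsk2 (PC2) cut at paired basic residues, carboxypeptidase E, encoded by Cpe, trims the exposed residues, and insulin crystallizes with zinc that the transporter encoded by Slc30a8 (ZnT8) brings into the granule. Mice, unlike humans, have a pair of insulin genes, Ins1 and Ins2. Alpha, delta and PP cells share much of this machinery, so in RNA of whole islets a level sums over cell types, and fewer cells of a type cannot be told apart from less RNA per cell.

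Ins1 is the insulin gene with an entry in the RefSeq promoter table (GRCm38.p6), Iapp encodes a peptide released with insulin, and Pcsk1 is the processing gene with the lowest p in BKO. The start regions of these 3 genes are shown. Each runs from 250 bases before to 50 bases after the annotated start, on the + strand, 5′ to 3′, and the capitals mark matches to CATCTG (an E box, the motif of basic helix-loop-helix factors) or to TGACG (the core of the cyclic AMP response element). The regions are chr19:52264047-52264346 for Ins1, chr6:142298175-142298474 for Iapp and chr13:75089607-75089906 for Pcsk1.
Ins1: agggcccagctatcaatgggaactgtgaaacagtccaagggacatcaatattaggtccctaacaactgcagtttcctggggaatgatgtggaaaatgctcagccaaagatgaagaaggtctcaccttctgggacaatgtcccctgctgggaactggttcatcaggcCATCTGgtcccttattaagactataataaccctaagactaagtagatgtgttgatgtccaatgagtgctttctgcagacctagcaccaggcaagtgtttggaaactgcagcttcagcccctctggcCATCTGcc
Iapp: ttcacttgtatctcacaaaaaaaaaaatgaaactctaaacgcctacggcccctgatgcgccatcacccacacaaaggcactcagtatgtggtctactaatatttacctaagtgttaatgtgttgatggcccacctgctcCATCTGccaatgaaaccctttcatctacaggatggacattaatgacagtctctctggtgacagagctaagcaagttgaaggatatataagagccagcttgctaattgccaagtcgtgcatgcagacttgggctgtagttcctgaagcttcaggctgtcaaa
Pcsk1: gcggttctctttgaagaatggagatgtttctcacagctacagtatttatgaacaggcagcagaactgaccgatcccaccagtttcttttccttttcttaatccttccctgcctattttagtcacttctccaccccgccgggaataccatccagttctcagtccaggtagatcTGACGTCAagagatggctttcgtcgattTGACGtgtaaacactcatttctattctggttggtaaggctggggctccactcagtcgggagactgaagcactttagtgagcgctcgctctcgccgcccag

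Both strands were searched, and the table held 7 of the 10 genes (not Ins2, Cpe or Slc30a8). CATCTG lay at -84 and 42 bases from the start of Ins1, at -111 in Iapp and, on the other strand, at -87 in Ucn3. TGACG lay at -78 and -50 in Pcsk1, with a match on the other strand at -75 that overlaps the first, and it also occurred in Pcsk2 and Scg5. CATCTG was present in 3 of 7 genes against 17.2% of all 32851 promoters in the table, and TGACG in 3 of 7 against 20.8%. CTAATG (an A box), TGCTGAC (part of a Maf element) and TATAAA, which binds the general transcription machinery, were in 0 of the 7 windows, and in 7.36%, 4.67% and 13.6% of all promoters. Only these exact letters were searched, so 0 matches do not show that an element is absent. The Iapp window, for example, holds the near match tatataag. These are letter matches and not binding sites, and the counts themselves were made on another build, mm9.

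Reads assigned to genes numbered 37302246 to 44442165 in the MIP1-CreERT libraries and 22330252 to 23673180 in the Ngn3-Cre libraries, so depth and Cre line cannot be told apart. Sirt6 was not lower in either knockout: it was at 18.8 and 12.6 CPM among the BKO controls, 16.8 and 22.8 CPM for BKO, 24.4 and 17.0 CPM among the EKO controls and 24.2 and 21.6 CPM for EKO, so its level does not follow the labels. These counts sum over the whole gene, exons that the Cre leaves in place included, so they check neither the deletion nor the labels. The hormones of the labelled tissue were abundant: glucagon (Gcg) was at 8892 to 36985 CPM, somatostatin (Sst) at 927 to 1555 CPM and pancreatic polypeptide (Ppy) at 300.6 to 3079 CPM beside the insulin genes. Libraries of a group differed far beyond counting noise, and the chi-square between replicates, divided by its degrees of freedom, was 71.5 for the BKO controls, 92.0 for BKO, 235 for the EKO controls and 136 for EKO. In the EKO model the libraries numbered 1 stood apart from those numbered 2. There, 11 acinar enzyme genes, markers of exocrine tissue, summed (here and for all marker lists in CPM without TMM scaling) to 7315 and 465 CPM in EKO control islets and to 1966 and 185 CPM in EKO, and 3 stellate cell markers to 1795 and 23.0 CPM and to 695 and 75.6 CPM.

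Insulin transcripts dominated the libraries. Ins1 and Ins2 together took 15.5% and 14.8% of gene reads in BKO control islets and 17.3% and 23.2% in BKO. They took 13.8% and 21.8% in EKO control islets and 17.5% and 25.1% in EKO. Both BKO libraries were above both of their controls, whereas the EKO groups overlapped, with the libraries numbered 2 high and those numbered 1 low in each. At this depth the 95% exact Clopper-Pearson intervals were narrow, for example 15.47% to 15.50% in BKO control replicate 1 and 25.04% to 25.08% in EKO replicate 2, and they cover counting error only. The mean share was 20.3% ± 4.18 (SD, n = 2) in BKO and 15.1% ± 0.507 (SD, n = 2) in its controls, a difference of 5.14 percentage points (exact permutation test, two-sided, p = 0.333, the smallest p that 2 against 2 allows). That difference was 2.18 points without BKO replicate 2 and 8.09 points without BKO replicate 1. In EKO it was 21.3% ± 5.33 against 17.8% ± 5.66 (SD, n = 2 each), a difference of 3.54 points (exact permutation p = 0.667). Without EKO control replicate 1 the EKO difference was -0.469 points, and without EKO control replicate 2 it was 7.54 points. Over both genotypes, MIP1-CreERT libraries averaged 17.7% ± 3.84 and Ngn3-Cre libraries 19.5% ± 4.93 (SD, n = 4 each), a difference smaller than the SD of either (exact permutation p = 0.571, smallest possible 0.0286). Over the 9 exact tests of shares and ratios given here, the Benjamini-Hochberg values ran from 0.6 to 0.667.

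**Figure D1:**
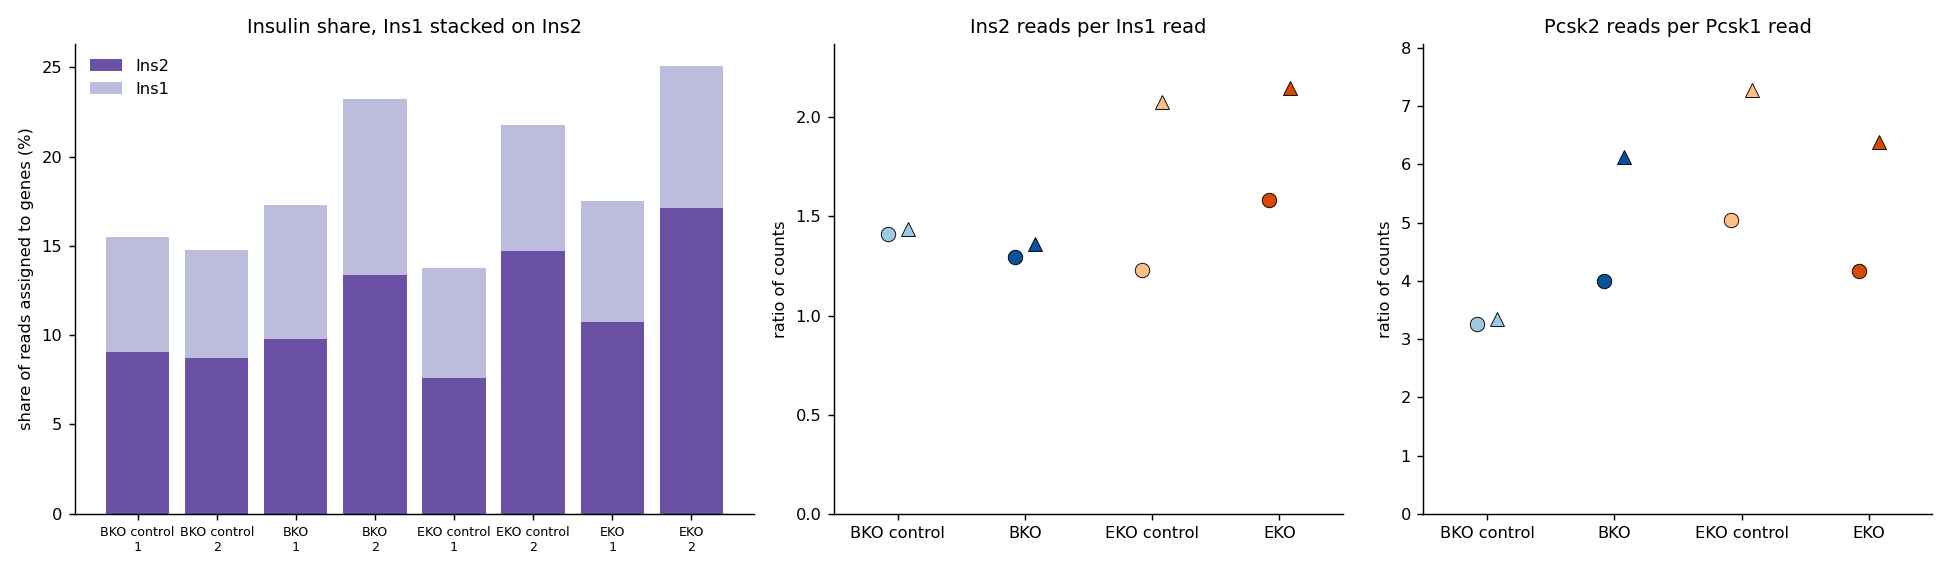
The left panel stacks the share of gene reads (%) held by Ins1 on that held by Ins2 in each of the 8 libraries, and the middle and right panels plot the ratio of Ins2 to Ins1 reads and of Pcsk2 to Pcsk1 reads, with circles for replicate 1 and triangles for replicate 2 of each group. The summed share runs from 13.8% in EKO control replicate 1 to 25.1% in EKO replicate 2, and the Ins2 to Ins1 ratio is 2.08 and 2.15 in the Ngn3-Cre libraries numbered 2.

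Ins1, the insulin gene that arose as a retroposed copy of Ins2, was at 60680.4 and 58480.0 CPM (reads scaled to the size of the library, after TMM scaling) in BKO control islets and at 72843 and 105207 CPM in BKO. In EKO control islets it was at 60090.0 and 73330.1 CPM and in EKO at 67076 and 84437 CPM. The BKO libraries lay above their controls without overlap, and the EKO library numbered 1 lay between its controls. The log2 fold change was 0.58 ± 0.42 (SE, n = 2 per group, 95% interval -0.42 to 1.58) in BKO and 0.18 ± 0.41 (-0.81 to 1.18) in EKO, and neither passed, at an adjusted p of 1 (quasi-likelihood test of edgeR, Benjamini-Hochberg adjusted over all genes tested, as in all adjusted p-values below).

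Ins2, the insulin gene that keeps the ancestral gene structure, was at 85724 and 84130.5 CPM in BKO control islets and at 94468 and 143205 CPM in BKO. It was at 73897 and 152504 CPM in EKO control islets and at 106285 and 181444 CPM in EKO. The BKO libraries again lay above their controls, replicate 1 by little and replicate 2 by much. In the EKO model the spread inside the control group, 2.06-fold, was wider than the fitted difference between the groups, 1.27-fold. In edgeR the log2 fold change was 0.48 ± 0.57 (-0.89 to 1.86) in BKO and 0.35 ± 0.57 (-1.03 to 1.72) in EKO (edgeR adjusted p = 1 in each), and the EKO value turned to -0.12 without EKO control replicate 1.

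Without BKO replicate 2 the BKO log2 fold change was 0.29 for Ins1 and 0.15 for Ins2, and without BKO replicate 1 it was 0.82 and 0.75, so the size rests largely on replicate 2.

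The ratio of the insulin genes varied little among the MIP1-CreERT libraries. There were 1.41 and 1.44 Ins2 reads per Ins1 read in BKO control islets, 1.30 and 1.36 in BKO, 1.23 and 2.08 in EKO control islets and 1.58 and 2.15 in EKO. Both BKO ratios were below those of their controls, a difference of 0.10 in the log2 ratio of Ins1 to Ins2 (exact permutation p = 0.333, the smallest possible). In EKO the same log2 ratio differed by -0.21, within overlapping groups (exact permutation p = 0.667). Between Cre lines it was higher in the MIP1-CreERT libraries by 0.32 (exact permutation p = 0.2). Without EKO control replicate 1 it was higher by 0.48, with p = 0.0286 (exact permutation test, the smallest that 4 against 3 allows). That call thus depends on leaving out a library whose stellate and acinar markers were the highest of the 8. As exact matches, the Ins1 and Ins2 transcripts share 7 of the 1013 windows of 50 bases in Ins1 (0.691%), and their longest shared run is 56 bases. Windows alike except for mismatches were not counted, so the share does not bound how many reads could align to both. Multiply aligned reads entered no gene's count, so reads inside a shared stretch may be missing from both.

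Iapp encodes amylin, the peptide that beta cells store and release with insulin. Its level was 30511 and 42767 CPM in BKO control islets, 32434 and 35924 CPM in BKO, 32365 and 36322 CPM in EKO control islets and 27121 and 38108 CPM in EKO. The knockout and control ranges overlapped in both models. The whole range over the 8 libraries was 1.58-fold, the narrowest of the 10 genes, and Iapp was not high in BKO replicate 2, where Ins1 was at its highest. The fitted log2 fold change was -0.10 ± 0.37 (-0.99 to 0.79) in BKO and -0.07 ± 0.37 (-0.96 to 0.81) in EKO (edgeR adjusted p = 1 in each).

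**Figure D2:**
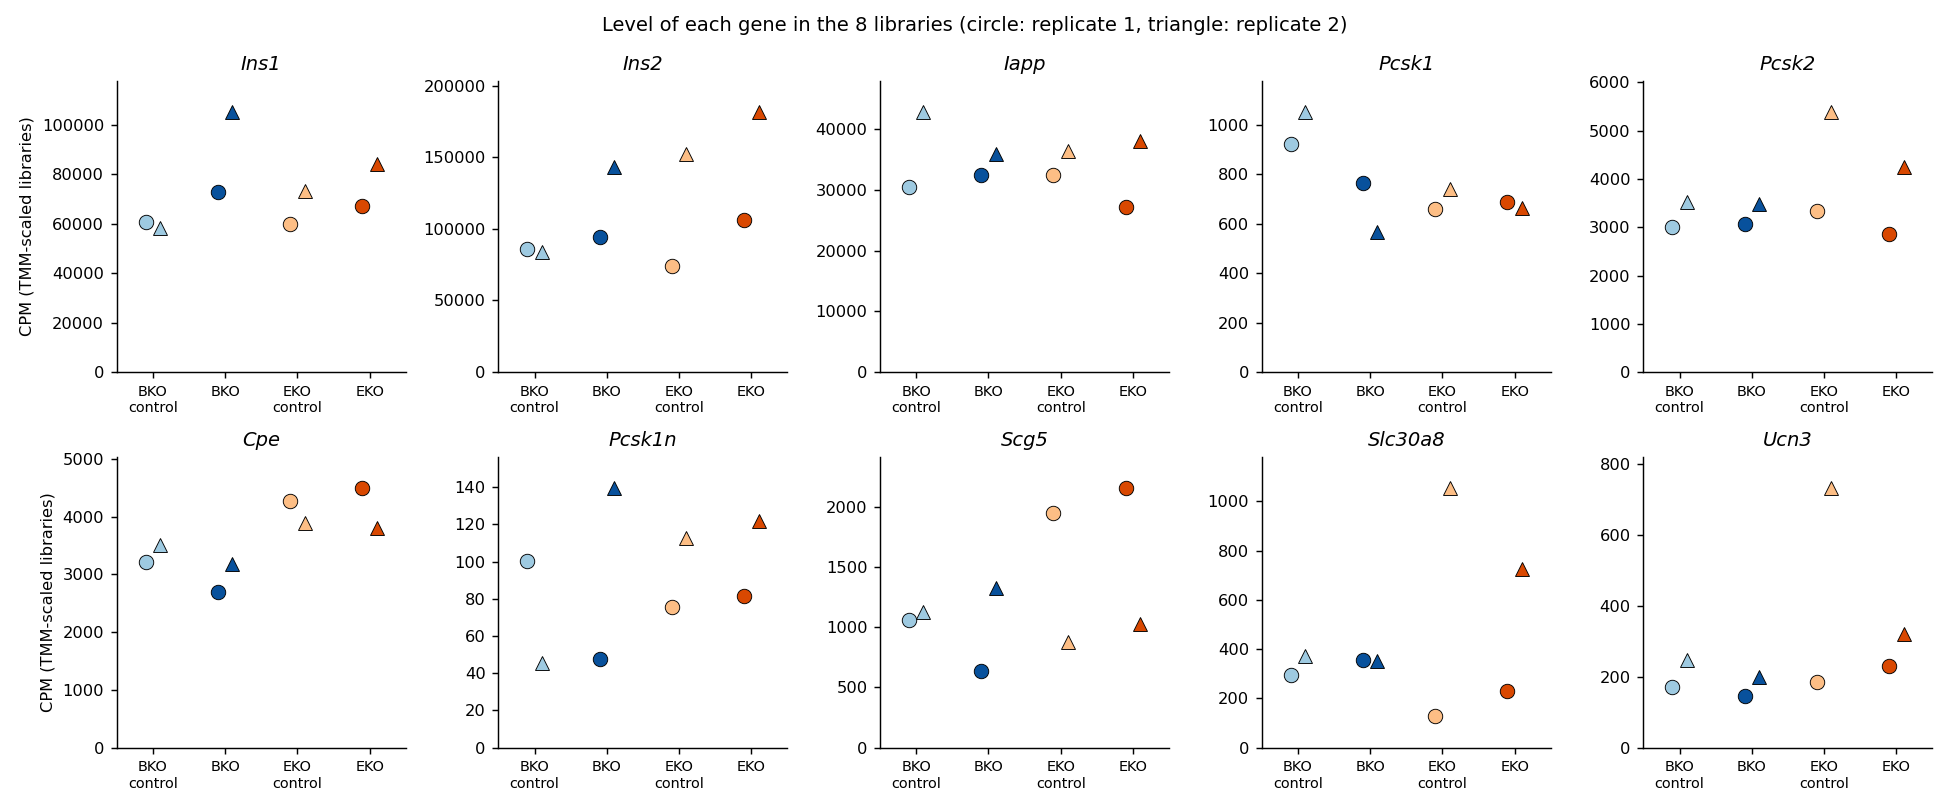
Each panel plots the level of a gene in CPM of the TMM-scaled libraries, from 0 upward, in the 4 groups, with a circle for replicate 1 and a triangle for replicate 2. Pcsk1 is lower in both BKO libraries (765 and 569 CPM) than in both BKO controls (924 and 1052 CPM), while Slc30a8 (127 and 1054 CPM) and Ucn3 (184 and 732 CPM) are far apart between the EKO controls.

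Pcsk1, the convertase that starts the processing of proinsulin, was at 924 and 1052 CPM in BKO control islets and at 765 and 569 CPM in BKO. It was at 660.5 and 740.4 CPM in EKO control islets and at 689 and 663 CPM in EKO. Both BKO libraries lay below both BKO controls and close to the Ngn3-Cre libraries, and the BKO controls were the highest of the 8. The BKO log2 fold change was -0.57 ± 0.20 (95% interval -1.05 to -0.08), a fitted level 0.675 times that of the controls. Its unadjusted edgeR p was 0.0289, the lowest of the 10 genes and number 81 in rank among 15041 genes, and its edgeR adjusted p was 1, so Pcsk1 did not pass. It was -0.37 without BKO replicate 2 and -0.80 without BKO replicate 1. In EKO the log2 fold change was -0.05 ± 0.20 (-0.54 to 0.43, edgeR adjusted p = 1). The difference between the EKO and BKO effects was 0.52 ± 0.29 (-0.17 to 1.20, edgeR adjusted p = 1), so the effects in the models were not shown to differ.

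Markers of other cells differed between the same groups as Pcsk1, Ins1 and Ins2, with 0 of them passing by edgeR or DESeq2 in BKO. The 11 acinar genes summed to 729 and 522 CPM in BKO control islets and 191 and 61.4 CPM in BKO. Of these, 11 of 11 were lower in each BKO library than in either control, as were 13.8% of all genes. Of 5 duct markers, 2 (Spp1 and Krt19) lay wholly below their controls, and Krt7, Sox9 and Cftr overlapped. Their sum, 2679 and 3320 CPM against 649.6 and 1466 CPM, was carried by Spp1, at 2163 and 2821 CPM against 261 and 966 CPM, while Krt7 was at 355 and 359.8 CPM against 356 and 584 CPM.

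Of 5 immune markers, C1qa, a complement gene of macrophages, lay wholly above its controls, at 83.3 and 70.6 CPM against 31.8 and 37.4 CPM (a fitted change of 1.15 ± 0.29 on the log2 scale), and Cd68 wholly below, at 17.7 and 16.9 CPM against 24.1 and 41.1 CPM. Ghrl, which encodes the epsilon cell hormone ghrelin, lay above at 4.98 and 2.24 CPM against 0.263 and 0.440 CPM (3.35 ± 0.78), the one of 5 delta, PP and epsilon markers that did not overlap. All 3 endothelial markers lay wholly below by little, with log2 fold changes from -0.15 to -0.13. The edgeR adjusted p was 1 for each, and these genes were named after their values were seen. Of 6 alpha cell markers, 1 lay wholly above and 2 wholly below. Of 6 beta cell markers the counts were 1 and 0, and of 3 stellate cell markers 0 and 1. Over all genes, 16.3% lay wholly above their BKO controls and 13.8% wholly below. The part of these cells in the BKO values was not tested.

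Pcsk2 was at 3013 and 3518 CPM in BKO control islets and at 3062 and 3487 CPM in BKO, so the BKO values lay within those of the controls. It was at 3331 and 5383 CPM in EKO control islets and at 2869 and 4238 CPM in EKO, and these groups overlapped. The log2 fold change was 0.00 ± 0.32 (-0.77 to 0.78) in BKO and -0.29 ± 0.32 (-1.07 to 0.48) in EKO (edgeR adjusted p = 1 in each). PC2 is also the main convertase of alpha cells, where it releases glucagon, and Gcg was at 27810.2 and 36985 CPM in EKO control islets and 22054 and 8892 CPM in EKO. All 6 alpha cell markers had a fitted log2 fold change below 0 in EKO, of which 0 passed in edgeR. Of the 6, 2 had an unadjusted edgeR p under 0.05 and 2 passed in DESeq2, where 556 and 86 of all 15041 genes did. In EKO, 4 of the 6 lay wholly below their controls and 0 wholly above, where 9.57% and 12.5% of all genes did. The summed level of the 6 markers was 28795 and 36437 CPM in EKO control islets and 22606 and 8666 CPM in EKO. Of these markers, 0 were at 0 reads in any library. Their part in the EKO value of Pcsk2 was not tested.

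Within a library there were 3.26 and 3.35 Pcsk2 reads per Pcsk1 read in BKO control islets and 4.00 and 6.13 in BKO, and 5.04 and 7.27 in EKO control islets and 4.16 and 6.39 in EKO. The BKO controls had the lowest ratios of the 8 libraries. The log2 ratio of Pcsk1 to Pcsk2, in which scaling cancels, differed by -0.58 in BKO without overlap (exact permutation p = 0.333, the smallest possible), by -0.28 without BKO replicate 2 and -0.89 without BKO replicate 1, and by 0.23 in EKO with overlap (exact permutation p = 0.667). It was 0.47 higher in MIP1-CreERT than in Ngn3-Cre libraries (exact permutation p = 0.114).

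Cpe, whose product follows the convertases, was at 3207 and 3511 CPM in BKO control islets and at 2689 and 3187 CPM in BKO. In EKO control islets it was at 4263 and 3891 CPM and in EKO at 4496 and 3794 CPM. BKO lay narrowly below its controls, and all 4 Ngn3-Cre libraries lay above all 4 MIP1-CreERT libraries. The share of all genes that separate the Cre lines in this way was not counted, and depth differs between the lines as well. In edgeR the log2 fold change was -0.19 ± 0.22 (-0.72 to 0.34) in BKO and 0.02 ± 0.22 (-0.51 to 0.55) in EKO (edgeR adjusted p = 1 in each).

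Pcsk1n encodes proSAAS, a granule protein that inhibits PC1/3. Its level was 100.1 and 45.7 CPM in BKO control islets, 47.6 and 139.6 CPM in BKO, 75.6 and 113 CPM in EKO control islets and 81.6 and 122 CPM in EKO. The groups overlapped in both models, and the BKO libraries held both a value near the lowest and the highest of the 8. The fitted BKO log2 fold change of 0.36 ± 0.58 (-1.04 to 1.77) went from -0.61 without BKO replicate 2 to 1.04 without BKO control replicate 1. In EKO it was 0.11 ± 0.58 (-1.29 to 1.52), and the edgeR adjusted p was 1 in each model.

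Scg5 encodes 7B2, the chaperone that PC2 needs to mature. It was at 1061 and 1127 CPM in BKO control islets, 634 and 1328 CPM in BKO, 1948 and 875 CPM in EKO control islets and 2156 and 1029 CPM in EKO. The knockout groups overlapped with their controls, and in each Ngn3-Cre group the library numbered 1 was more than 2-fold above that numbered 2. Pcsk2, its partner, was highest in the Ngn3-Cre libraries numbered 2. The log2 fold change of Scg5 was -0.16 ± 0.55 (-1.47 to 1.16) in BKO, which turned to 0.28 without BKO replicate 1, and 0.17 ± 0.55 (-1.14 to 1.49) in EKO, which turned to -0.45 without EKO replicate 1 (edgeR adjusted p = 1 in each).

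Slc30a8 was the most variable of the 10 genes. It was at 293 and 373 CPM in BKO control islets and at 355 and 352 CPM in BKO, a narrow range. In EKO control islets it was at 127 and 1054 CPM and in EKO at 231 and 727 CPM. The lowest and the highest of the 8 libraries were thus both EKO controls, 8.29-fold apart. The fitted log2 fold change was 0.09 ± 0.92 (-2.13 to 2.30) in BKO and -0.30 ± 0.92 (-2.52 to 1.92) in EKO (edgeR adjusted p = 1 in each), and the EKO value turned to 1.92 without EKO control replicate 2. The fit estimates the spread of a gene jointly over all groups. The error given for BKO therefore also holds the spread among the Ngn3-Cre libraries.

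Ucn3, which encodes urocortin 3, a peptide of mature mouse beta cells that acts on delta cells, was at 172 and 247 CPM in BKO control islets and at 147 and 201 CPM in BKO. It was at 184 and 732 CPM in EKO control islets and at 231 and 321 CPM in EKO. EKO control replicate 2 was more than 2-fold above every other library, and the groups overlapped in both models. The log2 fold change was -0.27 ± 0.60 (-1.71 to 1.17) in BKO and -0.73 ± 0.60 (-2.18 to 0.71) in EKO (edgeR adjusted p = 1 in each), and the EKO value turned to 0.59 without EKO control replicate 2.

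**Figure D3:**
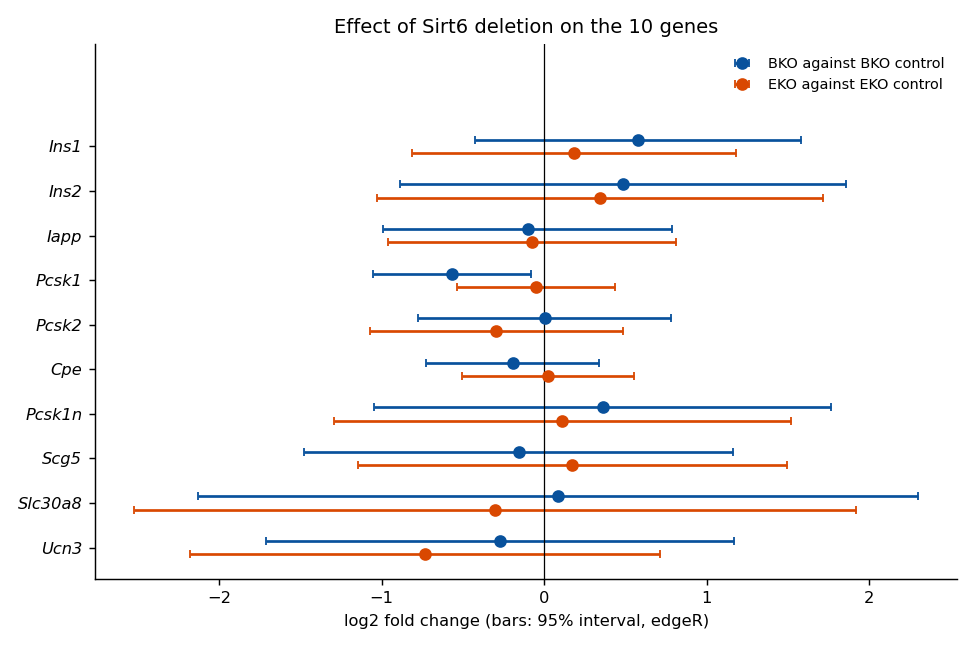
The log2 fold change of each of the 10 genes against the controls of its own model is plotted with its 95% interval from edgeR, in blue for BKO and in orange for EKO. The interval of Pcsk1 in BKO, from -1.05 to -0.08, is the only one of the 20 that leaves out 0, and those of Slc30a8 are the widest. The spread of a gene was estimated jointly over all groups, so the BKO bars also hold spread from the EKO model.

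Counted over the set, 0 of the 10 genes passed an adjusted p of 0.05 in BKO by edgeR and 0 by DESeq2, and 1 (Pcsk1) had an unadjusted edgeR p under 0.05. There edgeR called 0% of all 15041 genes tested, DESeq2 called 9 and 147 had an unadjusted edgeR p under 0.05. In EKO, 0 of 10 passed by edgeR and 0 by DESeq2, and 0 had an unadjusted edgeR p under 0.05. There edgeR called 0.00665% of all genes (1 gene), DESeq2 called 86 and 556 had an unadjusted edgeR p under 0.05. For the difference between the EKO and BKO effects, 0 of 10 passed by edgeR, which called 0% of all genes, 0 passed by DESeq2, and 0 had an unadjusted edgeR p under 0.05, where 6 of all genes passed by DESeq2 and 152 had such a p.

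In BKO, 2 of the 10 genes lay wholly above their controls (Ins1 and Ins2), where 16.3% of all genes did, and 2 lay wholly below (Pcsk1 and Cpe), where 13.8% did. In EKO, 0 of 10 lay wholly above and 0 wholly below, where 12.5% and 9.57% of all genes did. The median log2 fold change over the set was -0.05 in BKO and -0.01 in EKO, beside 0.01 and -0.01 over all genes. The authors' deposited tables of selected genes hold 99 genes for BKO and 243 for EKO, and 0 of the 10 are in either.

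The controls of the models were set against each other, since they differ in Cre line and, in replicate 1 of the BKO controls, in Sirt6 genotype. Both BKO controls had Pcsk1 levels above both EKO controls, with a log2 difference of 0.50 ± 0.20 (0.01 to 0.98, edgeR adjusted p = 0.890), which does not pass although the unadjusted edgeR p was 0.0468. Cpe differed by -0.28 ± 0.22 (-0.81 to 0.25, edgeR adjusted p = 0.962), also without overlap. Ucn3 differed by -1.13 ± 0.60 (-2.58 to 0.32, edgeR adjusted p = 0.947) and Slc30a8 by -0.83 ± 0.93 (-3.06 to 1.40, edgeR adjusted p = 0.978), both with overlap. Of the 10 genes, 0 passed by edgeR, where 0.00665% of all genes did (1 gene, with 833 at an unadjusted p under 0.05), and 0 passed by DESeq2, where 218 genes did. Of the 10, 1 gene (Pcsk1) lay wholly above, where 15.5% of all genes did, and 1 (Cpe) wholly below, where 14.4% did.

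A split by library number ran through the EKO model. For Slc30a8 the library numbered 2 exceeded that numbered 1 by 8.29-fold in the controls and 3.15-fold in EKO. The corresponding ratios were 3.97 and 1.39 for Ucn3, 2.06 and 1.71 for Ins2, 1.62 and 1.48 for Pcsk2 and 1.49 and 1.49 for Pcsk1n. Scg5 went the other way, with the library numbered 1 higher by 2.23-fold and 2.10-fold. Slc30a8 and Scg5 were more than 2-fold apart the same way in both genotypes, 2 of the 10 genes, where 12% of all 15041 genes were, and 6.05% of the 1818 genes with a mean level of at least 100 CPM, which leave out Pcsk1n (mean 90.6 CPM). In the BKO model 0 of the 10 genes were that far apart the same way, where 3.33% of all genes and 0 of the 1818 were.

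**Figure D4:**
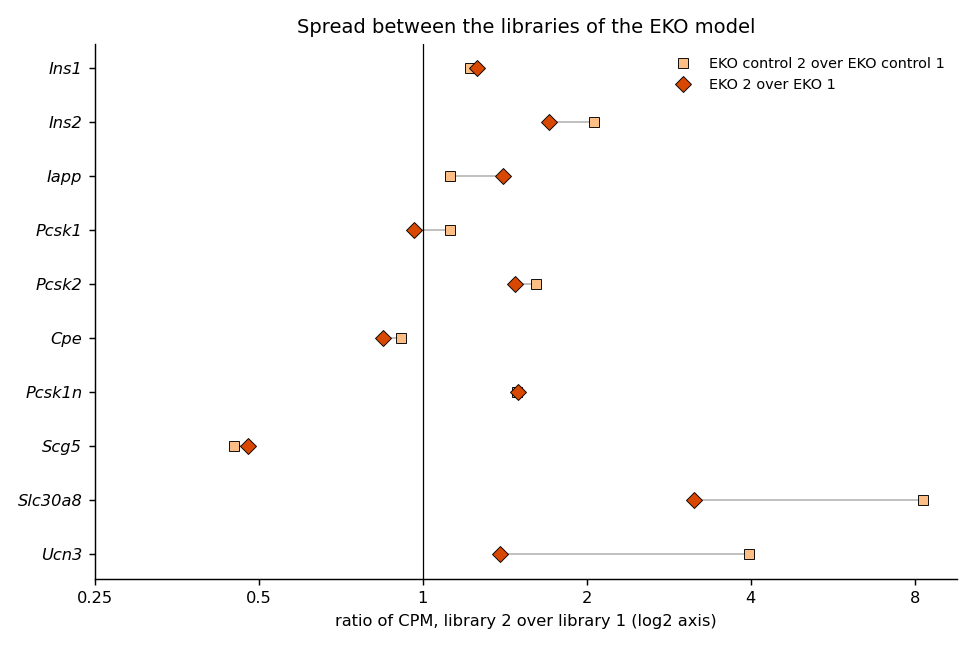
For each of the 10 genes, the ratio of the CPM of the library numbered 2 to that numbered 1 is plotted on a log2 axis, with squares for the EKO controls and diamonds for EKO. Slc30a8 lies at 8.29 and 3.15, Scg5 lies below 1 in both, and the square and the diamond of each gene except Pcsk1 fall on the same side of 1.

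Slc2a2, the glucose transporter of beta cells, named here after its values were seen, was low and high in the same Ngn3-Cre libraries as Slc30a8, at 58.6 and 464 CPM in EKO control islets and 101 and 507 CPM in EKO. The summed level of 6 beta cell markers outside the set was 1524 and 3221 CPM in EKO control islets and 1664 and 2793 CPM in EKO, with 0 of the 6 at 0 reads in any library. In the MIP1-CreERT libraries it ran from 2299 to 3382 CPM. Most of that sum was G6pc2, at 1213 and 2412 CPM in EKO control islets and 1281 and 2109 CPM in EKO after TMM scaling. Mafa, Pdx1 and Nkx6-1 were also higher in the library numbered 2 of each Ngn3-Cre group. Glp1r was so in the controls, at 116 and 238 CPM, but not in EKO, at 148 and 145 CPM. The acinar and stellate markers were high in the same Ngn3-Cre libraries in which Slc30a8, Ucn3 and Ins2 were low, and their part in these values was not tested. With the libraries numbered 1 left out, so that each Ngn3-Cre group kept 1 library assumed to vary like the others, the EKO log2 fold change was -0.54 for Slc30a8 and -1.19 for Ucn3. With those numbered 2 left out it was 0.86 for Slc30a8 and 0.33 for Ucn3, so the direction of these genes in EKO depends on which libraries are used.

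Levels of different genes were compared per kilobase of exon, with exon lengths from GENCODE M21 (GRCm38), which approximate the annotation behind the counts. The median over the 8 libraries was 76506 CPM per kb for Ins2, 65875 for Ins1 and 40738 for Iapp. The processing genes followed with 1725 CPM per kb for Cpe, 906 for Scg5 and 722 for Pcsk2, and then 179 for Slc30a8, 146 for Ucn3, 142 for Pcsk1 and 41.4 for Pcsk1n. The ranges of Ins2 and Ins1 overlapped, as did those of Cpe and Scg5, of Scg5 and Pcsk2, of Slc30a8 and Ucn3, and of Ucn3 and Pcsk1. The highest library of Iapp was below the lowest of Ins1, that of Cpe below the lowest of Iapp, that of Slc30a8 below the lowest of Pcsk2 and that of Pcsk1n below the lowest of Pcsk1.

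Of 24 other genes of prohormone folding, processing and granules, all 24 were tested and 0 passed in BKO or in EKO by edgeR or by DESeq2, and 0 had an unadjusted edgeR p under 0.05 in either. In BKO, 12 had a log2 fold change above 0 and 12 below, with a median of 0.00. In EKO, 4 had one above 0 and 20 below, with a median of -0.30 beside -0.01 over all genes. Without EKO control replicate 1 the EKO counts turned to 15 above and 9 below, with a median of 0.06. Without both Ngn3-Cre libraries numbered 1, among them that control, 23 genes were tested, with 7 above and 16 below and a median of -0.15. In BKO, 5 of the 24 lay wholly above their controls and 4 wholly below, where 16.3% and 13.8% of all genes did. In EKO, 0 lay wholly above and 4 wholly below, where 12.5% and 9.57% of all genes did. The authors' deposited tables hold 0 of the 24.

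Scg2, which encodes the granin secretogranin II, was at 3417 and 3647 CPM in BKO control islets and 2767 and 2842 CPM in BKO (log2 fold change -0.33 ± 0.23). It was at 5867 and 4986 CPM in EKO control islets and 4725 and 3625 CPM in EKO (-0.38 ± 0.23), so both knockout groups lay below their controls. Over all genes, 13.8% lay wholly below in BKO and 9.57% in EKO, and the share that did so in both was not counted. The granin Scg3 was at 1203 and 1487 CPM in BKO control islets and at 1123 and 1119.6 CPM in BKO (log2 fold change -0.26 ± 0.20). Spcs3, a subunit of the signal peptidase, was at 390.1 and 378 CPM in BKO control islets and at 489 and 439.6 CPM in BKO (0.27 ± 0.20). It was among the 5 of the 24 that lay wholly above their controls there. In EKO, Ero1lb, an oxidase that helps proinsulin form its disulfide bonds, was at 686 and 1051 CPM, against 1148 and 1348 CPM among the controls (-0.52 ± 0.25). Ide, which encodes the insulin-degrading enzyme, was at 79.3 and 78.2 CPM in EKO control islets and at 62.3 and 66.9 CPM in EKO (-0.29 ± 0.17). These genes had the lowest p of the 24 in a model, and the edgeR adjusted p was 1 for each of these changes.

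Ins2 lies between Igf2 and Th on mouse chromosome 7. Th, which encodes tyrosine hydroxylase, was at 24.1 and 17.3 CPM in BKO control islets, 54.4 and 77.1 CPM in BKO, 38.1 and 29.2 CPM in EKO control islets and 279 and 421 CPM in EKO. Its log2 fold changes were 1.67 ± 0.31 (edgeR adjusted p = 1) and 3.38 ± 0.33 (edgeR adjusted p = 0.194), beside 0.48 and 0.35 for its neighbour Ins2. DESeq2 called Th in both models, with an adjusted p of 0.00221 in BKO and 7.2e-20 in EKO.

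For Ins2, Pcsk1 and Ucn3, the genes with the most similar pattern over the 8 libraries were found by the root mean square difference of centred log2 CPM among 9475 genes. Those nearest to Ins2 were Ypel3 (0.10), Cnksr3 (0.12), Grb7 (0.12), Pink1 (0.13) and Ulk1 (0.13), where the median gene differed by 0.47. Those nearest to Pcsk1 were Ptprb (0.11), Nkrf (0.12), Nqo2 (0.13), Pkd2 (0.14) and Ythdc2 (0.15), with a median gene at 0.36. For Ucn3 the nearest were Angptl6, Acpl2 and Tshz3 (0.28 each), 6330439K17Rik (0.29) and Fras1 (0.30), with a median gene at 0.70. The libraries share depth and Cre line within a model, and likeness over 8 points is a description only. Within the set, the closest pair was Iapp and Pcsk2 (0.23), followed by Ins1 and Ins2 (0.28).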

How the data were processed

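Poly(A) RNA of isolated islets was measured in 8 libraries, 2 in each of 4 groups, prepared with a stranded kit from about 100 ng of total RNA per the labels. The authors deposited raw counts of reads per gene symbol. TopHat, HTSeq and mm9 were used per the submitters' processing notes. Versions and the strand setting of the counting are not stated in the sources used here. HTSeq's classes without a gene (31.6% to 39.7% of each library's rows for reads with several alignments, 8.19% to 11.1% outside genes) entered neither library sizes nor tests. The authors' deposited tables of selected genes hold log2 fold changes and p-values, per the file headers, and were used only to look up members.

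Tests on the counts used edgeR 4.0.16 (R 4.3.3): TMM scaling, filterByExpr with a count minimum of 10 (15041 genes left), quasi-likelihood F test, all 8 libraries in a fit of 4 groups without covariates, which leaves 4 residual degrees of freedom, with Benjamini-Hochberg adjustment over all genes and a threshold of 0.05. The spread of a gene was estimated jointly over the 4 groups, so the errors and p-values of a model also hold spread from the other. The procedure was run on simulated data with far less spread between libraries than these data hold. Here the common biological coefficient of variation, the relative spread between libraries of a group, was 0.43. That run therefore does not show which changes the test can detect here. Shares and ratios were compared by exact permutation tests (SciPy 1.17.1). The alternatives were DESeq2 1.42.0, its size factors, no filter, fits of 4 libraries, a replicate block, library sizes without the insulin or acinar genes, and each library left out. Leaving out the Ngn3-Cre libraries of a number was chosen after seeing the data.

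The 10 genes and all lists were chosen with earlier results of these data known. Named beyond them were the 3 genes of the pathway list with the lowest p in each model, Gcg, Sst and Ppy, and the 5 genes most like Ins2, Pcsk1 and Ucn3. Th, beside Ins2, and Slc2a2 were named with their values seen, as were other beta cell markers and single duct, immune and epsilon markers. Of the beta, acinar, duct and stellate markers 0 passed by edgeR or DESeq2 in BKO or EKO, and 0 had an unadjusted p under 0.05. Markers of delta, PP and epsilon, immune and endothelial cells were counted as well: of these 5, 5 and 3 genes, 0 passed by edgeR in BKO or in EKO and 0 by DESeq2, while 1, 1 and 0 had an unadjusted edgeR p under 0.05 in BKO and 0 in EKO. RefSeq promoters and GENCODE lengths are of GRCm38, not mm9.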

Additional observations from a re-analysis of the deposited data

How the results depend on the processing

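With 2 libraries per group, intervals were wide, and no gene of the 10 passed in any of the 4 comparisons under any alternative. The lowest adjusted p of any gene was 0.0521, for Slc30a8 between controls without the Ngn3-Cre libraries numbered 1. The labels do not say whether libraries of equal replicate number form pairs. The differences between numbers correlated between control and knockout with r = 0.31 over genes in the BKO model and 0.49 in the EKO model, from 2 libraries per group. With the replicate block, 0 genes were called in each comparison, and the one value to change sign was the difference between the effects for Iapp, at -0.0112. The block leaves differences in shares and ratios unchanged by construction. Permutation within numbers has too few arrangements to reach the threshold of 0.05, so the block does not test them. The cause of each change below was not tested.

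In BKO, Pcsk2 turned to -0.00738 by DESeq2 and by its size factors, and to -0.0149 with the insulin genes left out of library sizes, where Cpe in EKO turned to -0.00684. Without the Ngn3-Cre libraries numbered 1, Iapp in EKO was 0.0614, Cpe in EKO -0.0442 and Scg5 between controls 0.33. Without those numbered 2, the EKO values were 0.0641 for Pcsk1, 0.86 for Slc30a8 and 0.33 for Ucn3, the differences between the effects 0.0408 for Ins2, -0.15 for Iapp, 0.78 for Slc30a8 and 0.60 for Ucn3, the control values 0.21 for Ins2, 1.39 for Slc30a8 and 0.19 for Ucn3, and the insulin share between Cre lines 2.05 points.

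With single libraries left out, these log2 values changed sign. In BKO they ran from -0.32 to 0.17 for Iapp, -0.10 to 0.12 for Pcsk2, -0.61 to 1.04 for Pcsk1n, -0.79 to 0.28 for Scg5, -0.0772 to 0.27 for Slc30a8 and -0.51 to 0.0143 for Ucn3. In EKO they ran from -0.12 to 0.96 for Ins2, -0.34 to 0.15 for Iapp, -0.17 to 0.0374 for Pcsk1, -0.63 to 0.10 for Pcsk2, -0.10 to 0.14 for Cpe, -0.21 to 0.43 for Pcsk1n, -0.45 to 0.83 for Scg5, -1.35 to 1.92 for Slc30a8 and -1.44 to 0.59 for Ucn3. The differences between the effects ran from -0.60 to 0.48 for Ins2, -0.24 to 0.25 for Iapp, -0.64 to 0.0920 for Pcsk2, -0.92 to 0.73 for Pcsk1n, -0.30 to 0.99 for Scg5, -1.44 to 1.83 for Slc30a8 and -1.17 to 0.85 for Ucn3. Between controls they ran from -0.85 to 0.21 for Ins2, -0.17 to 0.32 for Iapp, -1.04 to 0.0883 for Pcsk1n, -0.83 to 0.32 for Scg5, -1.66 to 1.39 for Slc30a8 and -1.81 to 0.19 for Ucn3. The insulin share ran from -0.469 to 7.54 points in EKO and from -3.76 to 0.013 points between Cre lines. The log2 ratio of Ins1 to Ins2 ran from -0.59 to 0.17 in EKO and from 0.21 to 0.48 between Cre lines, and that of Pcsk1 to Pcsk2 from -0.0782 to 0.54 in EKO.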
